A study of Mus musculus with 12 samples.

Results

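The genes described here are 10 interferon-inducible GTPases of the mouse hippocampus, 5 of the guanylate-binding protein family (GBP: Gbp2, Gbp3, Gbp6, Gbp7 and Gbp9) and 5 of the immunity-related GTPase family (IRG: Igtp, Irgm1, Irgm2, Iigp1 and Gm12185). They were taken by symbol from a table of estimated gene counts that held 22236 genes. All 10 were in the table and all 10 passed the filter on low counts, which 15853 genes passed. The samples were whole hippocampi of 12 male mice aged 3 to 5 months, sequenced to ask how a reduced level of Hp1bp3, a chromatin protein, alters the transcriptome in 2 inbred strains. At least 6 weeks earlier, adeno-associated virus serotype 9 had been injected into the dorsal hippocampus of both hemispheres in mice of the strains C57BL/6J (called B6) and DBA/2J (called D2). The virus encoded either a short hairpin RNA against Hp1bp3 (KD, knockdown) or a scrambled hairpin (Ctrl), and 3 mice were sequenced for each combination of strain and treatment. All 4 groups had therefore been injected and carried virus. The whole hippocampus was lysed, so transduced cells were not separated from the rest.

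GBP and IRG proteins are large GTPases that cells make in response to interferons, secreted signals of infection and tissue damage. Interferon receptors act through JAK kinases, STAT proteins and interferon regulatory factors, which bind short DNA motifs near the start of the responding genes. The GTPases then assemble on the membranes around intracellular pathogens and help to break them open, and in the brain they are best known from microglia, astrocytes and neurons exposed to interferon.

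The annotation of mouse gene models in GENCODE M21, on build GRCm38, placed most of the genes in tight clusters. Gbp7 (142530342 to 142550149), Gbp3 (142560026 to 142573209) and Gbp2 (142620602 to 142638008) followed each other on the plus strand of chromosome 3. Gbp9 (105077630 to 105139539) and the row named Gbp6 (105214907 to 105293695) were on the minus strand of chromosome 5. On chromosome 11, Irgm1 (48861968 to 48871683) and Gm12185 (48904656 to 48992226) lay on the minus strand, and Igtp (58199556 to 58207591) and Irgm2 (58199618 to 58222782) overlapped on the plus strand. All of these are protein-coding gene models.

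The control sequences of the genes are shown because interferon responses are read at such motifs. Of the 10 genes, 7 had an entry in the promoter table of RefSeq for build GRCm38.p6, which gives 250 bases before and 50 bases after each annotated transcript start. An interferon-stimulated response element (ISRE) core was searched as GAAANNGAAA and a gamma-activated site (GAS) as TTCNNNGAA, both on either strand. The ISRE core was in the promoters of 7 of the 7 genes and the GAS in 4 (Gbp7, Igtp, Irgm2 and Gm12185). Over all 32851 promoters of the same length in the table, 3.44% held the ISRE core and 8.3% held the GAS. Counted by gene, as for the members, the shares were 3.99% and 9.55% of 27025 genes. These are matches of letters, given as a description. The 120 bases before the start follow, read 5′ to 3′ on the strand of the gene, with every base of a match in capitals.
Gbp2, chr3:142620543-142620662, plus strand: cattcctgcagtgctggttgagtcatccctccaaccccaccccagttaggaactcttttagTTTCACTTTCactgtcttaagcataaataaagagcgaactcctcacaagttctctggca
Gbp3, chr3:142559924-142560043, plus strand: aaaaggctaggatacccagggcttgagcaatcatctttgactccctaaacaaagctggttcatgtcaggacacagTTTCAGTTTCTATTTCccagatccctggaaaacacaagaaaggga
Gbp7, chr3:142530216-142530335, plus strand: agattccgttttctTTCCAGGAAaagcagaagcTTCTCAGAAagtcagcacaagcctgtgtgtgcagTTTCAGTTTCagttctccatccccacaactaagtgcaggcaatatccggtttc
Igtp, chr11:58199436-58199555, plus strand: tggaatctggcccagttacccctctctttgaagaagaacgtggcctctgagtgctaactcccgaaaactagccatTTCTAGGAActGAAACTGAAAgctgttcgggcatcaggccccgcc
Irgm1, chr11:48871421-48871540, minus strand: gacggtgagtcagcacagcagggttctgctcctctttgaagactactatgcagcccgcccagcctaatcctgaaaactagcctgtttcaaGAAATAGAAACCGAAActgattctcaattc
Irgm2, chr11:58214857-58214976, plus strand: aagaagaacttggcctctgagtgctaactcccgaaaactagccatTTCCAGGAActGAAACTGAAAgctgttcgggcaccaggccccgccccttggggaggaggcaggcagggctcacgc
Gm12185, chr11:48927183-48927302, minus strand: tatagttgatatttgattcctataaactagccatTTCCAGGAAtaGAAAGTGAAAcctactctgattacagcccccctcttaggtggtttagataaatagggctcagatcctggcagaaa

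All ISRE cores lay between 75 and 15 bases before the RefSeq transcript start. RefSeq and M21 starts differ for some genes, and the printed bases of Irgm2 and Gm12185 lie far inside the M21 spans given above. In Gbp3 and in Irgm1 there were 2 ISRE cores, overlapping by 4 bases. In Igtp, Irgm2 and Gm12185 a GAS stood 2 bases ahead of the ISRE core. Igtp and Irgm2 were identical at 86 of the 90 bases around the ISRE core (60 before its first base to 30 from it), whereas Igtp and Gm12185 shared 55 of 90. The second promoter entry of Gbp3 held neither motif.

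**Figure D1:**
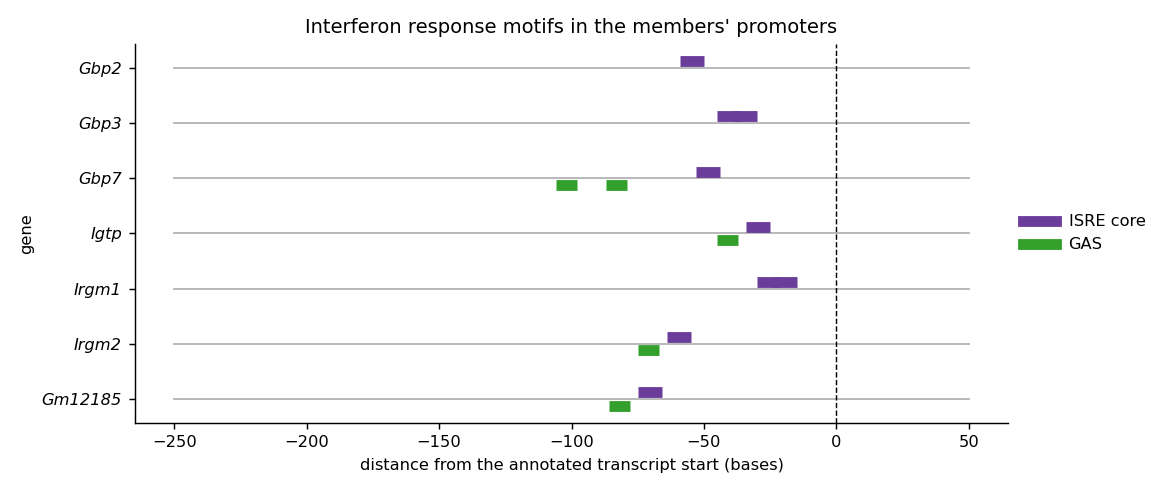
Position of each ISRE core and GAS match in the promoter of the 7 genes with an entry, in bases from the annotated transcript start (dashed line); grey lines mark the window of 250 bases before to 50 bases after. Every gene has an ISRE core between 75 and 15 bases before the start, and in Igtp, Irgm2 and Gm12185 a GAS stands next to it.

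Levels below are counts-per-million values (CPM) scaled by the TMM method, which corrects for library size and composition. Libraries are numbered 1 to 3 within a group by order of deposit, and a number pairs nothing across groups. The libraries held 18.2 M to 39.4 M expected counts each. A member had between 3.1 and 2913 expected counts in a library, and the members other than Gm12185 had at least 26. The targeted gene Hp1bp3 was at 308, 294 and 310 CPM in B6 Ctrl and at 185, 182 and 259 CPM in B6 KD. In D2 it was at 226, 215 and 234 CPM in Ctrl and at 177, 163 and 230 CPM in KD, so the library labelled D2 KD 3 lay inside the Ctrl range and went against its label. The edgeR log2 fold change of Hp1bp3 was -0.54 ± 0.15 in B6 and -0.25 ± 0.15 in D2 (SE, adjusted p = 0.0760 and 1). All 6 neuron markers and all 5 markers of hippocampal neurons examined were detected. The sum of 6 choroid plexus markers ran from 58.6 to 5095 CPM over the libraries, high and low in every group. Within B6 the KD mice carried lower animal numbers than the Ctrl mice and within D2 the Ctrl mice carried the lower ones, so group and animal order cannot be told apart.

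The first comparison asked how the GTPases responded to Hp1bp3 knockdown in B6. All 10 genes were at a higher level in each B6 KD library than in any B6 Ctrl library, and 9 of the 10 rose past the threshold. The edgeR log2 fold changes ran from 2.29 for Irgm2 to 3.42 for Gm12185, with a median of 2.75, against a median of 0.0025 over all genes tested. Gbp6 was the member not called (adjusted p = 0.0515). Of all 15853 genes tested, 1.76% were called higher in B6 KD by edgeR's quasi-likelihood test, and 13.9% had all KD libraries above all Ctrl libraries. The call was a Benjamini-Hochberg adjusted p under 0.05 over those genes.

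Among the GBP genes, Gbp3 showed the largest change. It was at 7.74, 8.22 and 5.67 CPM in B6 Ctrl and at 77.7, 99.8 and 47.0 CPM in B6 KD. The groups were far apart, with the lowest KD library several times above the highest Ctrl library, and the log2 fold change was 3.38 ± 0.55 (SE, edgeR adjusted p = 0.0326). Gbp2, which associates with the membranes of pathogen vacuoles, was at 8.44, 7.11 and 4.71 CPM in Ctrl and at 41.9, 50.03 and 48.4 CPM in KD. Its KD libraries were close to each other, and its change was 2.79 ± 0.47 (SE, edgeR adjusted p = 0.0332). Gbp7 had the narrowest Ctrl group relative to its mean, at 7.63, 7.91 and 6.97 CPM, against 46.02, 61.4 and 26.9 CPM in KD. This gave 2.57 ± 0.37 (SE, edgeR adjusted p = 0.0326).

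The other GBP genes depended more on single libraries. Gbp6 was at 8.36, 7.53 and 5.29 CPM in B6 Ctrl and at 74.9, 92.6 and 20.03 CPM in KD, so that KD 3 stood well below KD 1 and KD 2. Its log2 fold change was 3.14 ± 0.75 (SE, edgeR adjusted p = 0.0515). Gbp9 was the GBP gene with the lowest level, at 2.35, 3.14 and 2.95 CPM in Ctrl. In KD it reached 21.3 and 22.4 CPM in libraries 1 and 2 and 3.83 CPM in library 3, just above the Ctrl range. Its change was 2.49 ± 0.57 (SE, edgeR adjusted p = 0.0478).

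Among the IRG genes, Irgm1, Irgm2 and Igtp belong to the regulatory branch that guards the cell's own membranes and controls the effector GTPases. Irgm1 had the highest CPM of the 10 genes, at 16.2, 14.0 and 11.3 CPM in B6 Ctrl and at 82.1, 117 and 73.4 CPM in KD. All 3 KD libraries were several times above the Ctrl libraries, and the log2 fold change was 2.71 ± 0.45 (SE, edgeR adjusted p = 0.0326). Igtp was at 9.71, 6.16 and 4.598 CPM in Ctrl and at 34.6, 51.6 and 24.2 CPM in KD. Irgm2 was at 10.3, 7.72 and 5.03 CPM in Ctrl and at 37.9, 55.7 and 19.5 CPM in KD. The 2 genes had the smallest changes among the IRG members, 2.43 ± 0.54 for Igtp and 2.29 ± 0.47 for Irgm2 (SE, edgeR adjusted p = 0.0453 and 0.0410).

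The effector gene Iigp1, whose product binds directly to pathogen vacuoles, was at 5.53, 4.17 and 3.04 CPM in B6 Ctrl and at 40.5, 58.1 and 23.2 CPM in KD. It rose by 3.25 ± 0.68 on the log2 scale (SE, edgeR adjusted p = 0.0415). Gm12185 was the least abundant member, at 0.324, 0.115 and 0.116 CPM in B6 Ctrl, which is 12.45, 3.1 and 4.18 expected counts. In KD it was at 2.13, 3.33 and 0.831 CPM, or 75.02, 76.49 and 33.19 expected counts. Its change was 3.42 ± 0.53 (SE, edgeR adjusted p = 0.0326), and its Ctrl level rests on very few reads.

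**Figure D2:**
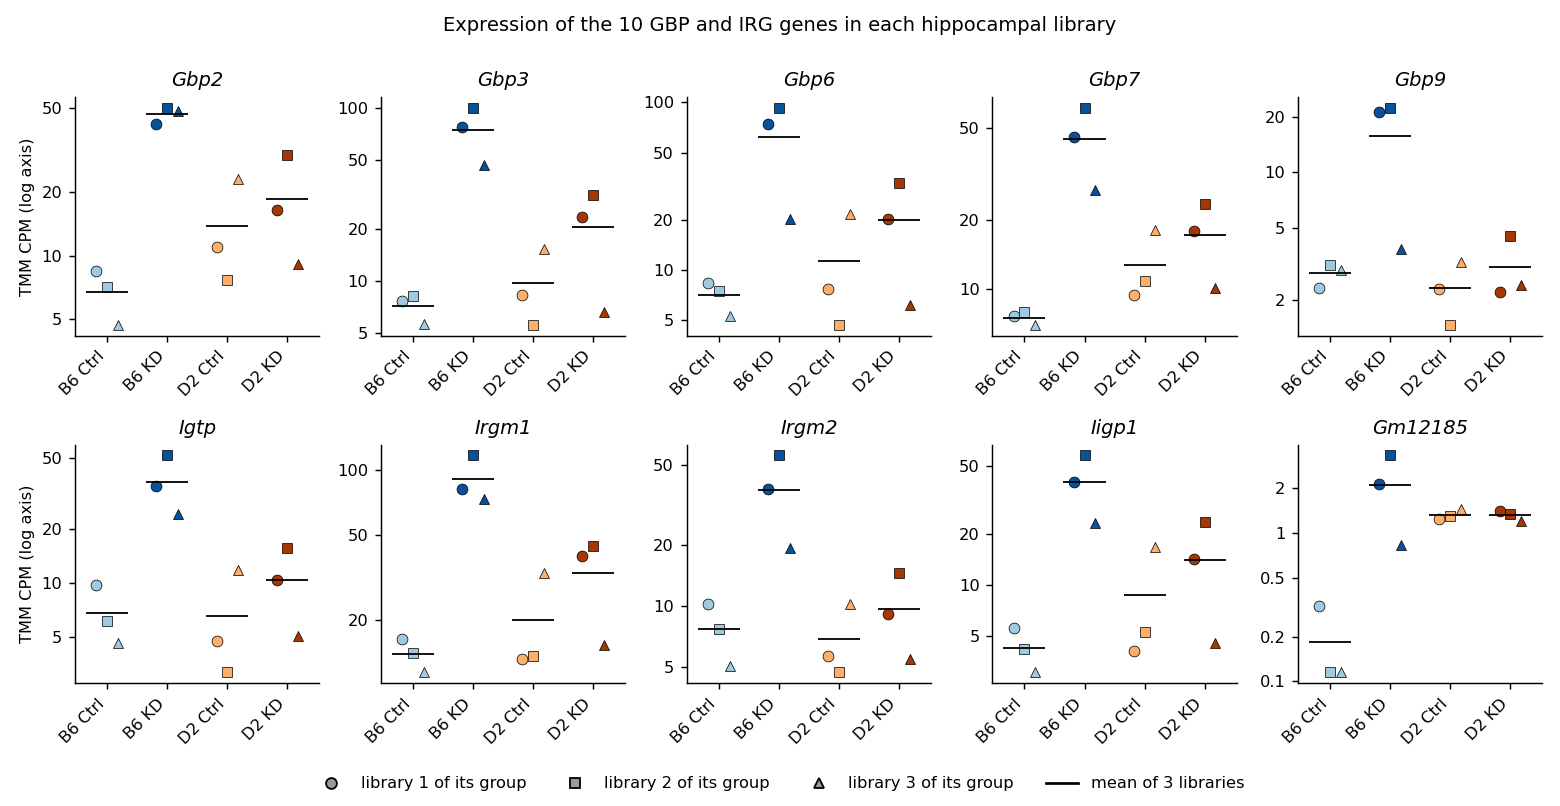
TMM counts-per-million values on a log axis for each of the 10 genes in the 12 libraries; each point is 1 library, its shape gives the library number within the group, the line is the mean of 3, and each panel has its own axis. Every B6 KD point lies above every B6 Ctrl point for all 10 genes, while the D2 groups overlap and library D2 Ctrl 3 is the highest D2 Ctrl point in each panel.

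The members moved together from library to library. Library B6 KD 2 was the highest of all 12 for each of the 10 genes, and B6 KD 3 was the lowest B6 KD library for 9 of them, with Gbp2 the exception. B6 KD 3 was also the B6 KD library with the most Hp1bp3 left, at 259 CPM against 185 and 182, and the part of this in the members' levels was not tested. Over the 12 libraries the Pearson correlation of log2(CPM + 1) between members had a median of 0.927 over 45 pairs, from 0.601 between Igtp and Gm12185 to 0.987 between Gbp3 and Irgm1. These values describe libraries that share groups and depth. The 5 other genes whose pattern over the 12 libraries was most like the members' mean, among 14069 genes with a mean of at least 1 CPM, were Tap1 (r = 0.993), Parp9 (0.992), Ifi204 (0.989), Phf11d (0.985) and Psmb8 (0.985). Tap1 encodes a peptide transporter of antigen presentation and Psmb8 a subunit of the immunoproteasome.

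The B6 calls lay close to the threshold. DESeq2 called 10 of 10 members in B6, with 10.6% of all genes called in either direction. With the library total as a covariate edgeR called 0, with adjusted p from 0.0576 to 0.0829 and an unadjusted p under 0.05 for all 10. When 1 library was left out, edgeR called 0 members without B6 Ctrl 1, B6 Ctrl 3, B6 KD 1, B6 KD 2 or D2 Ctrl 1, called 5 without B6 Ctrl 2, D2 Ctrl 2 or D2 KD 1, and called 10 without any of the other 4. The fold changes moved less, from 1.88 to 4.09 over all of these fits, and all 10 members kept an unadjusted p under 0.05 in each. With all libraries, 1880 genes higher and 1382 lower in B6 KD were at that level in edgeR.

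Compared per length, the members differed widely in level. Dividing by the length of the merged exons of each gene model, the highest levels in B6 Ctrl were those of Igtp at 3.37 ± 1.30 CPM per kb and Gbp2 at 2.68 ± 0.75 (SD, n = 3). Irgm1 at 2.38 ± 0.42, Gbp3 at 2.21 ± 0.42, Irgm2 at 2.08 ± 0.71 and Gbp6 at 1.64 ± 0.37 CPM per kb followed, and neighbours in this order overlapped in range. Gbp7 (1.34 ± 0.086), Iigp1 (0.729 ± 0.21) and Gbp9 (0.543 ± 0.080) came next, Gbp7 above the range of Iigp1, and Gm12185 was below the range of all others at 0.033 ± 0.022 CPM per kb (SD, n = 3). In B6 KD the highest was Gbp3 at 22.9 ± 8.12 CPM per kb, followed by Gbp2 at 18.6 ± 1.72 and Igtp at 18.2 ± 6.84, whose ranges overlapped. Gm12185 was again the lowest at 0.375 ± 0.22 CPM per kb (SD, n = 3).

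The same comparison in D2 gave smaller differences that did not pass the test. Of the 10 members, 9 had a higher mean estimate in D2 KD than in D2 Ctrl and 0 were called by edgeR, where the share called higher over all genes was also 0%. No member had an unadjusted p under 0.05, against 264 genes higher and 188 lower at that level among all genes, and DESeq2 and limma-voom also called 0 members. The log2 fold changes ran from -0.02 for Gm12185 to 1.06 for Gbp3, with a median of 0.57. In none of the 10 genes did the D2 KD libraries all lie above the D2 Ctrl libraries, a separation seen in 2.93% of all genes.

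In D2 the KD libraries differed among themselves. Gbp3 was at 8.33, 5.604 and 15.4 CPM in D2 Ctrl and at 23.6, 31.4 and 6.64 CPM in D2 KD, a change of 1.06 ± 0.52 (SE, edgeR adjusted p = 1). Irgm1 was at 13.2, 13.6 and 33.2 CPM in Ctrl and at 39.5, 44.2 and 15.2 CPM in KD, a change of 0.72 ± 0.43. In both genes KD 1 and KD 2 stood above every Ctrl library, whereas KD 3 lay inside the Ctrl range. It was between Ctrl 2 and Ctrl 1 for Gbp3 and between Ctrl 2 and Ctrl 3 for Irgm1. Gbp2 was at 10.99, 7.698 and 23.0 CPM in Ctrl and at 16.5, 29.9 and 9.14 CPM in KD, with 0.41 ± 0.44. Here KD 1 too was below Ctrl 3.

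Iigp1 was at 4.06, 5.26 and 16.7 CPM in D2 Ctrl and at 14.3, 23.4 and 4.52 CPM in D2 KD. Igtp was at 4.74, 3.17 and 11.8 CPM in Ctrl and at 10.4, 15.6 and 5.06 CPM in KD. Irgm2 was at 5.67, 4.698 and 10.2 CPM in Ctrl and at 9.16, 14.5 and 5.47 CPM in KD. For these 3 IRG genes only KD 2 was above the highest Ctrl library, and their log2 fold changes were 0.69 ± 0.63, 0.65 ± 0.53 and 0.497 ± 0.46 (SE). Gbp6 and Gbp7 followed the same order, at 7.65, 4.698 and 21.7 against 20.02, 33.2 and 6.199 CPM for Gbp6 and at 9.42, 10.9 and 17.96 against 17.8, 23.5 and 10.1 CPM for Gbp7. Gbp9 stayed low in all D2 libraries, at 2.32, 1.47 and 3.26 CPM in Ctrl and 2.24, 4.497 and 2.44 CPM in KD.

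Gm12185 was nearly constant over the D2 libraries, at 1.24, 1.302 and 1.44 CPM in Ctrl and 1.398, 1.34 and 1.202 CPM in KD. Its change in D2 was -0.02 ± 0.46 on the log2 scale (SE, edgeR adjusted p = 1).

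Library D2 Ctrl 3 had the highest level among D2 Ctrl libraries for all 10 members and was above D2 KD 3 for all 10. D2 KD 3, the library whose Hp1bp3 level went against its label, was the lowest D2 KD library for 9 members. The median D2 change of the members, 0.57 with all libraries, was 0.88 without D2 KD 3 and 1.14 without D2 Ctrl 3. It was 0.12 without D2 KD 2, 0.54 without D2 KD 1, 0.35 without D2 Ctrl 1 and 0.33 without D2 Ctrl 2. In each of these fits 0 members were called. An unadjusted edgeR p under 0.05 was found for 2 members without D2 KD 3 and for 6 without D2 Ctrl 3. It was found for 0 with all libraries and for 0 without any other D2 library. Leaving out the lowest KD or the highest Ctrl library raises the change by construction, so these counts do not test a D2 change. KD 1 and KD 2 were above Ctrl 1 and Ctrl 2 for 9 members, and above all Ctrl libraries for 2.

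**Figure D3:**
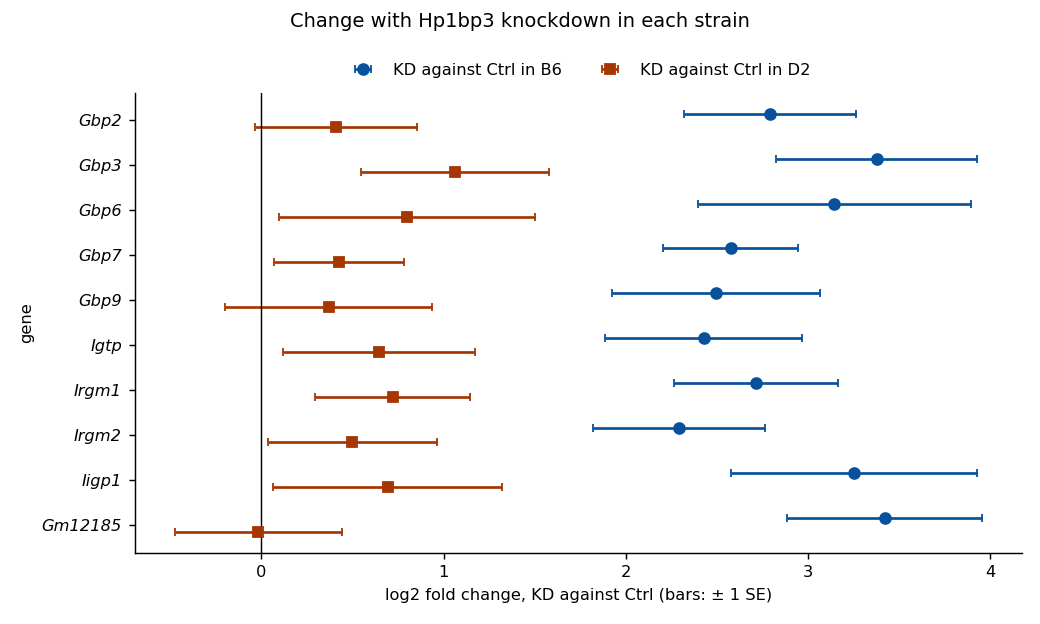
Log2 fold change of KD against Ctrl from edgeR for each gene in B6 (circles) and D2 (squares), with bars of 1 standard error on each side. The B6 values lie between 2.29 and 3.42 and the D2 values between -0.02 and 1.06.

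Whether the response differed between strains was tested as the strain by treatment interaction. The KD change was lower in D2 than in B6 for all 10 members, by 1.78 (Igtp) to 3.44 (Gm12185) on the log2 scale, with a median of -2.23. No member was called by edgeR (adjusted p from 0.821 to 0.825), where the share called lower over all genes was 0%. All 10 had an unadjusted edgeR p under 0.05, against 600 genes lower and 337 higher at that level among all 15853 tested. DESeq2 called Gbp7 and Gm12185, with 0.0694% of all genes called in either direction, and limma-voom called 0, with 7 members at an unadjusted p under 0.05. Averaged over the strains the members were higher in KD by 1.39 to 2.22, with a median of 1.65. By edgeR 0 of 10 were called for this average, as was 0% of all genes in this direction, with adjusted p from 0.0540 to 0.0961. An unadjusted edgeR p under 0.05 was found for all 10, against 1726 genes higher and 1320 lower at that level among all genes. DESeq2 called all 10, with 7.83% of all genes called in either direction. Leaving out B6 KD 3, D2 Ctrl 3 or D2 KD 3 brought the edgeR count for the average to 9, 8 and 9, and leaving out any other single library gave 0.

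The strains themselves were compared next. With scrambled virus, Gm12185 was the member that differed, at 1.24 to 1.44 CPM in D2 and 0.115 to 0.324 CPM in B6, a log2 fold change of 2.78 ± 0.54 (SE, edgeR adjusted p = 0.00442). It was the only one of the 10 called, against 5.23% of all genes called higher in D2. Gm12185 and Gbp7 had all D2 Ctrl libraries above all B6 Ctrl libraries, as had 13.9% of all genes. Gbp7 was at 12.7 ± 4.57 CPM in D2 Ctrl and 7.505 ± 0.485 in B6 Ctrl (SD, n = 3 each), and its change of 0.77 ± 0.36 was not called (SE, edgeR adjusted p = 0.238). For the members as a group the median was 0.61, and it became -0.04 without library D2 Ctrl 3. Reads had been placed on a B6 or a D2 genome according to the mouse, and the number and sequence of GTPase genes vary among inbred strains. The part of the reference in a strain difference was not tested.

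With Hp1bp3 hairpin virus the members were lower in D2 than in B6. In the edgeR fit Gbp3, Gbp7, Gbp9, Igtp, Irgm1 and Irgm2 were called, 6 of 10 against 9.05% of all genes called lower. All D2 KD libraries were below all B6 KD libraries for Gbp2, Gbp3, Gbp7, Igtp, Irgm1 and Irgm2, also 6 of 10, against 15.7% of all genes. Gbp9 was called although D2 KD 2, at 4.497 CPM, was above B6 KD 3 at 3.83 CPM. The largest difference was that of Gbp9, -2.36 ± 0.57 (SE, edgeR adjusted p = 0.0157), followed by Irgm2 at -1.95 ± 0.47 (adjusted p = 0.0156) and Gbp3 at -1.86 ± 0.52 (adjusted p = 0.0327). Gbp2, Gbp6 and Iigp1 had estimates of -1.34, -1.65 and -1.52 that were not called, and Gm12185, the gene already higher in D2 Ctrl, was at -0.66 ± 0.45 (adjusted p = 0.414). The count was 0 when D2 KD 3, D2 KD 1 or B6 KD 2 was left out or when only the 6 KD libraries were fitted, it was 1 without B6 KD 1, and with the library total as a covariate it was 3.

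The other GBP and IRG genes of the table give the families' wider picture, for a list of 17 symbols of which 15 were tested. In B6, 6 were called higher and 1 lower in KD (0.877% of all genes were called lower), with a median log2 fold change of 2.32. Those called higher were Gbp4 (2.07), Gbp5 (2.32), Tgtp1 (3.31), Gm12250 (3.61), Gm5431 (2.63) and Gm4841 (2.79), with edgeR adjusted p from 0.0379 to 0.0473. A further 5 genes had estimates of 1.88 (Gbp8), 4.51 (Gbp10), 1.47 (Gbp11), 3.31 (Tgtp2) and 4.14 (Gm4951) that were not called. The 3 remaining genes with higher estimates, 9930111J21Rik1 (1.10), F830016B08Rik (0.60) and 9930111J21Rik2 (0.40), also missed the threshold. Irgq, a family member of a divergent type, fell by 0.48 ± 0.09, from 132 to 94.8 CPM on average (SE, edgeR adjusted p = 0.0361). Irgc1 did not pass the filter, with at most 4 counts in a library. In D2 none of the 15 was called, with a median of 0.58 and an adjusted p of 1 for each in edgeR.

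9930111J21Rik2 was the family gene with the largest strain difference. It averaged 32.4 CPM in B6 Ctrl and 0.402 CPM in D2 Ctrl, a log2 difference of -6.22 ± 0.38 (SE, edgeR adjusted p = 7.75e-07). Its near copy 9930111J21Rik1 averaged 0.647 CPM in B6 Ctrl and 2.22 CPM in D2 Ctrl. In the M21 transcripts, 51.8% of the windows of 75 bases of 9930111J21Rik2, the length of 1 read, also occur in 9930111J21Rik1, so the assignment of reads between them is uncertain.

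Reads shared among close copies limit some members as well. Of the 75-base windows of the row named Gbp6, 99.4% also occur in transcripts of other M21 genes. Its identifier belongs in M21 to a gene model named Gm43302 that spans Gbp6 and Gbp10, so the symbol is that of the table. The shared part was 11.8% for Gm12185, 11.3% for Gbp7, 7.8% for Igtp, 4.78% for Irgm2, 3.61% for Gbp9, 2.06% for Gbp3, 0.955% for Gbp2 and 0% for Irgm1 and Iigp1. Whole-number expected counts, which arise when no read was split, were found in 11 of 12 libraries for Iigp1 and 10 for Gbp2, and in 0 for Gbp6, Irgm2 and Gm12185. The number was 9 for Gbp3 and Gbp7, 6 for Irgm1, 4 for Gbp9 and 2 for Igtp. Irgm1 thus had split reads in some libraries although it shared no window, so the window share does not capture all splitting. Gm12185 also overlaps Tgtp1, Psme2b and 9930111J21Rik1 on its own strand and Olfr56 on the opposite strand. The row named Gbp5 carries the identifier of Gbp2b in M21, and M21 types Gm12250 as a processed pseudogene and Gbp11 as a polymorphic pseudogene.

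Genes upstream of the GTPases in the interferon pathway were counted by role. Of 8 interferon genes, including Ifng and Ifnb1, 0 passed the filter, and none had more than 2 counts in any library. The 4 receptor subunits were all tested and none was called in B6, with estimates of 0.55 for Ifngr1, 0.52 for Ifnar2, -0.13 for Ifngr2 and -0.05 for Ifnar1. Of 14 JAK-STAT and IRF genes, 6 were called higher and 0 lower in B6 KD, with a list median of 1.14. Among those called were Irf7 (4.69 ± 0.71), a driver of type I interferon responses, and Nlrc5 (2.93 ± 0.63), an activator of class I antigen presentation genes (SE, edgeR adjusted p = 0.0326 and 0.0436). Stat2 (1.40), Irf8 (1.61) and Irf9 (1.73) were also called, while the kinases Jak1 (0.19), Jak2 (0.10) and Tyk2 (-0.02) had estimates near 0 and were not called.

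Of 7 inhibitors of interferon signalling, Usp18, which blocks the type I receptor, was the gene called in B6 (4.32 ± 0.79, SE, edgeR adjusted p = 0.0361). Socs3, Socs1 and Ptpn6 had estimates of 3.22, 1.53 and 1.52 that were not called. Socs3 was at 3.69, 10.3 and 54.2 CPM in B6 KD against 1.91 to 3.06 CPM in Ctrl, so its estimate rests largely on B6 KD 3. Among the other interferon-inducible GTPases, Mx1 (4.39), Mx2 (3.55) and Gm4070 (2.40) were called and Gvin1 (1.73) was not. In D2 no gene of these lists was called, with list medians of 0.16 for JAK-STAT and IRF genes, 0.12 for the inhibitors and 0.98 for the very large and Mx GTPases.

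Genes for the proteins that the GTPases work with were counted last. Of 14 ubiquitin and autophagy partners, including Atg5, Atg7 and the Gabarap genes, 1 was called in B6. This was Trim21, an antibody receptor with ubiquitin ligase activity, at 2.19 ± 0.31 (SE, edgeR adjusted p = 0.0326). The others lay between -0.21 (Gabarapl1) and 0.17 (Gabarap). Of 8 inflammasome genes, Il1b (2.83) and Pycard (1.502) were called in B6, and Casp4 (1.83) and Nlrp3 (1.204) were not.

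**Figure D4:**
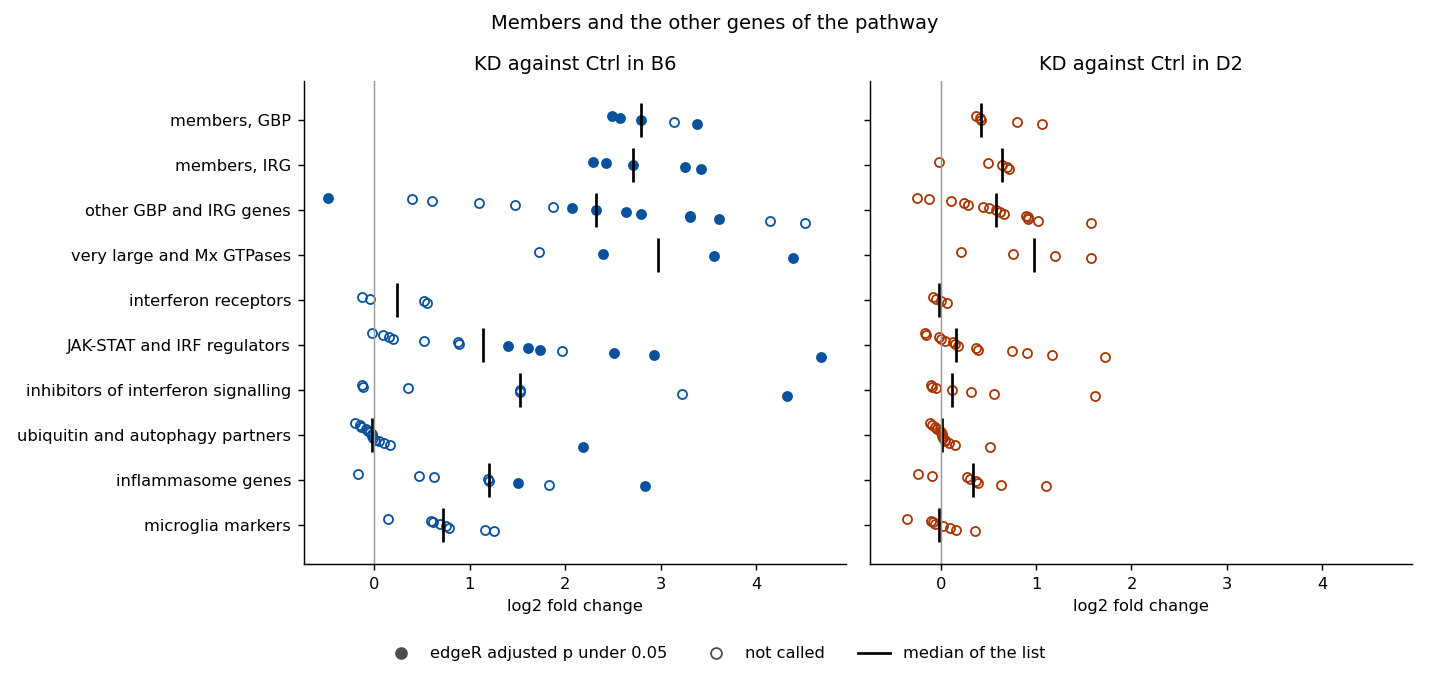
Log2 fold change of KD against Ctrl in B6 (left) and D2 (right) for the members and for other genes by role; each circle is 1 gene, filled where the edgeR adjusted p was under 0.05, and the vertical bar is the median of the list. In B6 the medians of the GTPase lists lie between 2.32 and 2.98, the median is 0.24 for the receptors and -0.02 for the ubiquitin and autophagy partners, of which Trim21 at 2.19 is the filled circle, and no circle is filled in D2.

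Markers of the cell types in the tissue were measured in the same libraries. In bulk tissue, more cells of a type and more RNA per cell cannot be told apart. All 8 microglia markers had higher estimates in B6 KD (median 0.72) and 0 were called, with 7 having all KD libraries above all Ctrl libraries. Their summed level was 371 to 423 CPM in B6 Ctrl, 481 to 751 in B6 KD, 344 to 528 in D2 Ctrl and 343 to 531 in D2 KD. The rise of the members was larger, from a summed level of 49.7 to 76.6 CPM in B6 Ctrl to 287 to 612 CPM in B6 KD, and the part of microglia in it was not tested. P2ry12, a marker of resting microglia, had an estimate of 0.14 ± 0.20 (SE, edgeR adjusted p = 0.740).

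Astrocyte markers summed to 1820 to 1896 CPM in B6 Ctrl and 2716 to 3922 CPM in B6 KD. Most of that difference was Gfap, which averaged 606 CPM in Ctrl and 1964 CPM in KD and was not called (1.70 ± 0.52, SE, edgeR adjusted p = 0.0981). Aqp4 was the 1 of 6 astrocyte markers called (1.202 ± 0.19, SE, edgeR adjusted p = 0.0326), S100b had an estimate of -0.14, and the list median was 0.28. Of 6 monocyte and perivascular macrophage markers 0 were called in B6, and all 6 had higher estimates in KD (median 0.83). They summed to 6.13 to 20.3 CPM in Ctrl and 15.3 to 24.3 CPM in KD. Among them the monocyte marker Ccr2 averaged 0.329 CPM in Ctrl and 2.11 CPM in KD, with all KD libraries above all Ctrl libraries. Ly6c2 averaged 0.390 and 3.13 CPM, with libraries that overlapped. Of 8 T and NK cell markers 2 passed the filter. Over all 8 the sum was 0.694 to 1.67 CPM in B6 Ctrl and 1.81 to 8.94 CPM in B6 KD. It was highest in B6 KD 2. Cd3e, a T cell gene that was not tested, was at 0 counts in 4 of the 12 libraries, none of them in B6 KD. Its level was 0 to 0.0765 CPM in B6 Ctrl and 0.227 to 1.36 CPM in B6 KD. Endothelial markers summed to 185 to 233 CPM in B6 Ctrl and 230 to 267 in B6 KD, and neuron markers to 5340 to 5873 and 4625 to 5715 CPM, with 0 called in either list. Choroid plexus markers, of which 0 of 6 were called, summed to 78.4, 2716 and 152 CPM in B6 Ctrl and to 143, 4138 and 5048 CPM in B6 KD. The part of each of these in the members' levels was not tested.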

How the data were processed

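Per the labels, mRNA libraries were made from the hippocampus of 12 mice, and groups came from the strain and treatment labels alone. The authors filtered and trimmed paired-end reads of 75 bases, aligned them to the genome of each mouse's own strain and estimated expression with RSEM 1.2.12 and Bowtie2 2.2.0. The deposited values are expected counts per gene, not normalized, and GRCm38/mm10 is the build in the submitters' processing notes. The annotation release was not given in the sources used here. Reads of both sequencing runs had been joined for 10 of 12 samples. A table of the authors' DESeq2 normalized counts was not used.

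Expected counts were rounded and filtered with filterByExpr over the 4 groups. Genes were tested in R 4.3.3 with edgeR 4.0.16 (quasi-likelihood F-test, TMM scaling, robust and legacy options), with a mean for each group over the 12 libraries and Benjamini-Hochberg adjustment over 15853 genes. Standard errors were derived from each estimate and its F statistic and are approximate. Alternatives were DESeq2 1.42.0, limma-voom (limma 3.58.1), other edgeR settings and leaving out each library. As a check of the code, edgeR, limma-voom and DESeq2 were run on simulated counts in which only the B6 KD group was changed. That check does not bear on the strain comparisons or on the effect of single libraries. Depth ran from 18.2 M to 39.4 M expected counts per library, and the spread between mice set the precision. Since nothing pairs libraries across groups, they were compared as independent mice, and no replicate pair agreed within sampling noise.

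All 10 members were named with their values in every library. Of each other list up to 4 genes with the largest change in B6 were named, and in the GBP and IRG list each tested gene, and further genes were named after their values were seen. The members, lists and tests were chosen with earlier results of these data known. CPM per kb used the merged exons of GENCODE M21 gene models. Not every gene of the lists is reported here.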

Additional observations from a re-analysis of the deposited data

How the results depend on the processing

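Counts of members called out of 10 depended on the tool and on single libraries. For KD in B6 the count was 9, with 7 to 10 in the other fits that used all libraries of the groups compared, except for the library total as a covariate, which gave 0, and 0 to 10 when 1 library was left out. For KD in D2 it was 0 in every fit. For KD averaged over strains it was 0, but 10 with DESeq2 and 0 to 9 when 1 library was left out. For the interaction it was 0, but 2 with DESeq2, and 0 in each fit that left out 1 library. For D2 against B6 in Ctrl it was 1 in every fit. For D2 against B6 in KD it was 6, with 3 when the library total was a covariate, 0 when only the 6 libraries compared were fitted and 0 to 7 when 1 library was left out. The averaged change of Hp1bp3 passed the threshold with DESeq2, at -0.41, and ran from -0.51 to -0.35 when 1 library was left out, passing without B6 KD 3 and without D2 KD 3. The cause of these shifts was not tested, except that fewer libraries leave fewer degrees of freedom.

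Some estimates that were not called changed direction. With the library total as a covariate Gm12185 in D2 was at 0.21. When 1 library was left out, 4 of 120 member estimates of KD in D2 changed sign, as did 8 of 120 for D2 against B6 in Ctrl, and 0 of 120 did in each of the other comparisons. In D2 these left Gbp2 between -0.13 and 0.98 and Gbp9 between -0.025 and 0.67, both lowest without D2 KD 2, and Gm12185 between -0.075 and 0.050. Between strains in Ctrl they left Gbp3 between -0.032 and 0.72, Gbp6 between -0.18 and 1.05 and Irgm1 between -0.049 and 0.76, all lowest without D2 Ctrl 3, and Igtp between -0.77 and 0.31 and Irgm2 between -0.56 and 0.12, both highest without B6 Ctrl 1. No paired analysis was possible because the labels carry no replicate numbers shared between the groups. Gm12185 in B6 Ctrl, with 3.1 to 12.45 expected counts, has the fewest counts among the members, and its levels there are the members' values that depth limits most.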
